A study of Mus musculus with 12 samples.

Results

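The comparison is between 2 sets of libraries from Min6, a mouse insulinoma line used as a model of the pancreatic beta cell. The column names of the count table carry a code that splits the 12 libraries into 3 sets, each with 1 library of every treatment. Set 1 (D118, F118, L118 and FL118) is replicate 1 of each treatment, set 2 (D178, F178, L178 and LF178) is replicate 2, and set 3 (D68, F68, L68 and LF68) is replicate 3. The members are the 4 libraries of set 1 and the 4 of set 3, 8 of 12 in all, chosen by the code alone, and set 2 is given as the remaining set. The sources used here do not give the meaning of the codes. The labels do not say that the sets are separate cultures, passages or days, so p-values measure only the spread between these libraries, which may be technical.

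All cells were Min6, all were treated for 48 h, and no group was left without vehicle or drug. The 4 treatments were DMSO, FoxOi at 1 µM (AS1842856, an inhibitor of the transcription factor FoxO1), Loperamide at 5 µM (an opioid receptor agonist), and both drugs together at the same doses. Each treatment had 3 libraries of polyadenylated RNA, and every set holds all 4, so treatment and set can be estimated in the same fit. A cell line of 1 origin limits what the groups can stand for, and in bulk RNA fewer cells of a type and less RNA per cell cannot be told apart.

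Beta cells make and package insulin at a very high rate, which loads their endoplasmic reticulum, mitochondria and ribosomes. When amino acids run short or protein folding is strained, translation is slowed and the transcription factor ATF4 switches on genes for amino acid supply, redox balance and, under lasting stress, growth arrest. Cultures of one line can differ in such states, and libraries can differ in which transcripts they recover well; both kinds of difference appear in counts.

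Each library held between 10640485 and 19499216 counted reads, over 55487 genes, of which 16808 had enough reads to be tested. Neither total counts (two-sided exact permutation test, p = 0.762, with set labels permuted within treatment) nor the number of detected genes (p = 0.292) differed between sets 1 and 3. Insulin and amyloid polypeptide transcripts summed to 28822 to 81119 CPM (read counts scaled to the library's effective size) in set 1 and 25681 to 59210 in set 3, so beta cell hormone transcripts were abundant in both. Mature beta cell markers summed to 3407 to 6637 CPM in set 1 and 3282 to 5732 in set 3. Alpha cell markers reached 2300 to 5318 and 2184 to 4861 CPM, and neuronal markers 2212 to 3246 and 2252 to 3225. Of 18 acinar markers, 9 were at 0 counts in every library, among them Ptf1a, Cpa1 and Prss1, and the list summed to 8.60 to 120 CPM in set 1 and 6.10 to 95.2 in set 3. Fibroblast markers summed to 1.69 to 4.29 and 2.13 to 4.601 CPM, with Col3a1 and Lum at 0. Macrophage and leukocyte markers summed to 16.9 to 62.4 and 13.1 to 39.3 CPM, with C1qb and Tyrobp at 0.

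Between set 1 and set 3, genes of the amino acid stress response, transcripts of the mitochondrial genome and short housekeeping transcripts such as ribosomal protein mRNAs were higher in set 1. Most genes with long transcripts, 12 immediate early genes and single genes led by Aff2, Hipk2 and Tmem178b were lower in set 1. In a quasi-likelihood fit (edgeR) with treatment and set as terms, 6477 of 16808 genes (38.5%) differed between sets 1 and 3 at an adjusted p below 0.05. Of these, 3056 (18.2%) were higher in set 1 and 3421 (20.4%) were lower. Most differences were small: the median absolute log2 difference of the called genes was 0.32, and 224 genes differed by at least 2-fold, 76 of them higher in set 1 and 148 lower. The sign was the same in all 4 treatments for 5973 called genes, 92.2% of those called, against 8256 of all genes tested (49.1%). The same differences within treatments enter the call, and the 8256 include the 5973, so these shares are a description.

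For scale, over the same genes treatment took 76.9% of the variance of log2 CPM between the 12 libraries, set took 10.8% and the remainder 12.3%. After each treatment's mean was removed, the first principal component held 35.2% of the remaining variance and put all 4 libraries of set 1 between 19.1 and 28.3 and all 4 of set 3 between -29.4 and -16.2. Set 2 lay between them, from -4.83 to 2.90. The second component, with 13.6%, placed set 2 (-24.3 to -10.5) below both set 1 (1.71 to 16.1) and set 3 (4.99 to 8.85). Deviations of 2 libraries of set 1 correlated over 16808 genes at r from 0.27 to 0.47 (6 pairs) and those of 2 libraries of set 3 at 0.30 to 0.39. Pairs of 1 library from set 1 and 1 from set 3 gave -0.43 to -0.20 (12 pairs), while pairs within set 2 gave 0.08 to 0.13. Such correlations are partly negative by construction, since the 3 deviations of a treatment sum to 0.

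**Figure D1:**
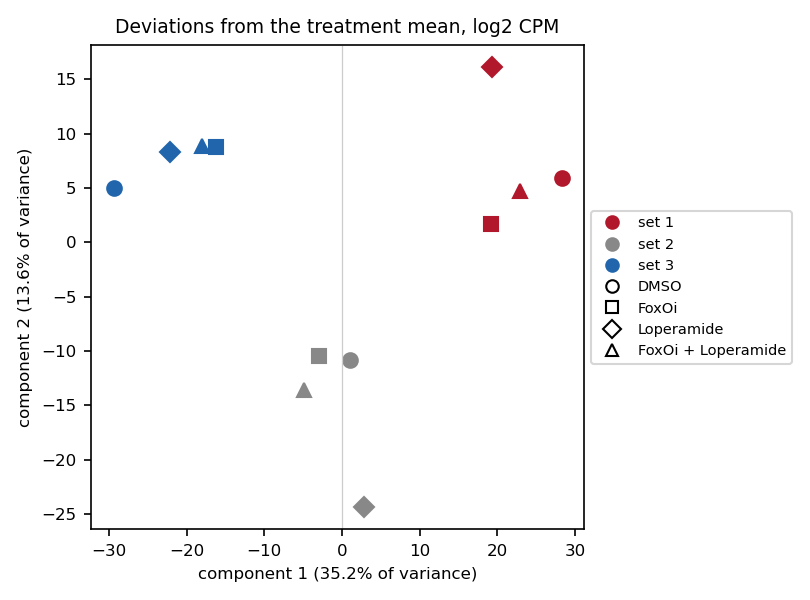
First and second principal components of the 12 libraries after the mean of each treatment was removed from log2 CPM, with 1 point per library, coloured by set and shaped by treatment. Along the first axis (35.2% of the variance left) the set 1 libraries sit between 19.1 and 28.3 and the set 3 libraries between -29.4 and -16.2, with set 2 from -4.83 to 2.90.

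The gene with the smallest adjusted p was Aff2, which encodes a nuclear protein of the AF4 family (chrX:69360294-69868037, GRCm38, spanning exons and introns). It measured 20.5 CPM in DMSO, 40.4 in FoxOi, 17.6 in Loperamide and 9.58 in the combination in set 1, and 73.4, 119, 49.8 and 27.3 in the same order in set 3. Set 2 gave 38.4, 80.4, 28.5 and 19.4 CPM, between the other sets in every treatment. Within each treatment set 1 was the lowest, although the values overlap between treatments because FoxOi libraries were high and combination libraries low in each set. The log2 difference of set 1 from set 3, negative where set 1 is lower, was -1.61 ± 0.07 (SE; edgeR quasi-likelihood, Benjamini-Hochberg adjusted p = 4.87e-14), a 3.06-fold difference.

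Hipk2, a nuclear kinase of stress and developmental signalling (chr6:38694390-38876165), measured 6.58, 11.8, 13.2 and 7.67 CPM in set 1 and 30.6, 39.1, 40.1 and 21.8 in set 3. These ranges do not overlap, and the difference was 3.37-fold (log2 -1.75 ± 0.11, adjusted p = 5.51e-11, edgeR). Tmem178b, which encodes a membrane protein, gave 3.77, 6.80, 8.29 and 9.79 CPM in set 1 against 16.9, 26.6, 23.01 and 37.1 in set 3, again without overlap (log2 -1.88 ± 0.11, adjusted p = 3.15e-12). Its set 2 values of 9.33, 15.7, 9.95 and 21.1 CPM fell between. Klhl11, a substrate adaptor of cullin ubiquitin ligases, differed by -1.70 ± 0.12 on the log2 scale. Among the other genes with the largest negative differences were the guanylate cyclase subunit Gucy1a2 (-1.99 ± 0.28), the glycine receptor subunit Glra1 (-1.69), the netrin receptor Unc5d (-1.66), the teneurin Tenm1 (-1.59), the orphan receptor Gpr63 (-1.58), the protease Tll1 (-1.90), Plcxd3 (-1.88) and Uprt (-1.81). All of them were lower in set 1 in 4 of 4 treatments, which the rule for naming genes by size required.

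The 148 genes at least 2-fold lower in set 1 included 85 protein-coding genes and 41 processed pseudogenes (27.7%, against 13.4% of all genes tested), and 23 of them lie on the X chromosome (15.5%, against 4.21%). The cytoskeletal actin gene Actg1, named here after its values were seen, was one of them, at 123, 200.2, 159.6 and 118.5 CPM in set 1 and 353, 465, 431 and 407 in set 3 (log2 -1.48 ± 0.18). The actin-derived pseudogene Actg-ps1 (-1.68) and the predicted pseudogenes Gm12715 (-1.61), Gm8399 (-1.58) and Gm8543 (-1.46) moved with it. The sources used here do not give how reads that match several actin copies were assigned, so these values are uncertain.

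Genes at least 2-fold higher in set 1 were fewer and mostly scarce: the 76 had a median of 0.643 CPM, against 21.2 for all genes, and 18 of them averaged at least 1 CPM. Cartpt, which encodes the neuropeptide precursor CART, known from islets and brain, was the most abundant of the 12 named for the largest positive differences (chr13:99898489-99901091). It measured 58.5, 32.8, 29.9 and 23.3 CPM in set 1, 44.99, 20.2, 23.9 and 12.4 in set 2 and 34.0, 17.0, 14.4 and 10.9 in set 3. Set 1 was the highest in each treatment, with a 1.94-fold difference from set 3 (log2 0.96 ± 0.09, adjusted p = 2.49e-09). The largest positive log2 differences among called genes above 1 CPM were those of Gfra3 (1.46 ± 0.27), a co-receptor for the neurotrophic factor artemin, the mannose-binding lectin Mbl2 (1.14), the muscle myosin light chain Mylpf (1.14), Nme9 (1.12) and the matrix protein matrilin, Matn1 (1.11).

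**Figure D2:**
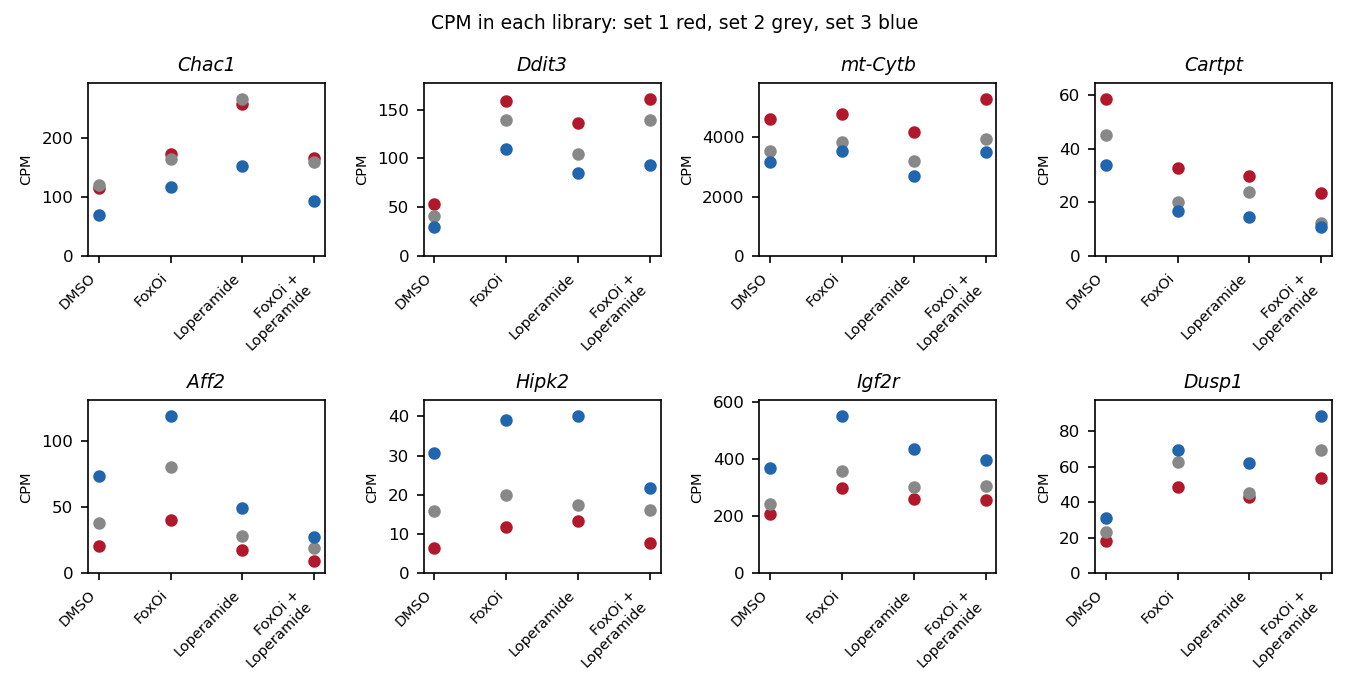
CPM of 8 genes in each of the 12 libraries, grouped by treatment along the x axis and coloured by set (set 1 red, set 2 grey, set 3 blue). Chac1, Ddit3, mt-Cytb and Cartpt are higher in set 1 than in set 3 in every treatment, and Aff2, Hipk2, Igf2r and Dusp1 are lower.

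ATF4 and its targets were higher in set 1. Of 28 tested list members, 19 were higher, 3 were lower and 6 did not pass the test, with a median log2 difference of 0.22 against 0.03 for all genes. The shares of all genes tested were 18.2% higher and 20.4% lower. The median was above 0 in each treatment: 0.31 in DMSO, 0.20 in FoxOi, 0.23 in Loperamide and 0.16 in the combination. Atf4 itself measured 608, 823, 742 and 756 CPM in set 1, 529, 750.2, 655 and 675 in set 2, and 415, 619.7, 531 and 562 in set 3 (set 1 against set 3, log2 0.47 ± 0.05, adjusted p = 1.03e-08). Set 1 exceeded set 3 within every treatment.

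The leading member was Chac1, which encodes an enzyme that degrades glutathione and is a sensitive ATF4 target (chr2:119351229-119354381). Chac1 stood at 115, 173, 259 and 167 CPM in set 1, 121, 165, 267 and 159 in set 2, and 69.8, 117.6, 154 and 93.5 in set 3. Here set 2 lay close to set 1 rather than between the others: the log2 difference was 0.71 ± 0.06 for set 1 against set 3 (adjusted p = 3.14e-10), 0.71 for set 2 against set 3, and 0.00 for set 1 against set 2 (adjusted p = 0.964). Ddit3, which encodes the pro-apoptotic factor CHOP (chr10:127290774-127296288), had 53.1, 159, 136 and 161 CPM in set 1, 40.9, 139.8, 104 and 139 in set 2, and 29.9, 109.5, 85.3 and 93.1 in set 3. It was graded over the sets, at 0.70 ± 0.06 between sets 1 and 3 (adjusted p = 7.93e-10), 0.42 between sets 2 and 3 and 0.28 between sets 1 and 2.

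Trib3, a pseudokinase that inhibits AKT, gave 63.0, 237, 213 and 212 CPM in set 1 and 34.7, 178.3, 114 and 139 in set 3 (log2 0.67 ± 0.07, adjusted p = 1.40e-08). Nupr1, a stress-induced chromatin protein, differed by 0.57 ± 0.08, and the hormone gene Fgf21, which averaged 0.975 CPM, by 1.03 ± 0.30. Smaller differences were found for the phosphatase subunit Ppp1r15a (0.46), the serine pathway enzymes Psph (0.36) and Phgdh (0.30), and the asparagine synthetase Asns (0.14). The 3 members lower in set 1 were the amino acid transporters Slc7a1 (-0.45) and Slc7a11 (-0.36) and the lipoprotein receptor Vldlr (-0.23). Of 26 tested genes for chaperones and sensors of the endoplasmic reticulum, the other arms of the same stress response, 4 were higher and 7 lower, near the 18.2% and 20.4% of all genes, with Herpud1 at 0.35 and Manf at 0.29, and with Canx at -0.52, Atf6 at -0.52 and Ern1 at -0.45.

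Promoters of the ATF4 targets are shown to set the members that hold the factor's known motif beside their differences. The composite site of ATF4 with C/EBP partners was searched for as TGATGNAA on both strands, in RefSeq windows (GRCm38.p6) of 250 bases before to 50 after each gene's start. It was found in 7 of the 25 ATF4 list members with a promoter entry (28%) and in 1096 of 27025 genes (4.06%). Each 30-base stretch below is written 5′ to 3′ along the gene, with the match in capitals; TTGCATCA and TTACATCA are matches on the opposite strand.
Chac1 (chr2:119351038-119351067, + strand): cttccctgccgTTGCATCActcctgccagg
Trib3 (chr2:152344028-152344057, - strand): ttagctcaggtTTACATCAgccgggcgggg
Nupr1 (chr7:126625562-126625591, - strand): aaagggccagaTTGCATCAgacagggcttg
Fgf21 (chr7:45615611-45615640, - strand): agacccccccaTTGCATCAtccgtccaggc
Asns (chr6:7693214-7693243, - strand): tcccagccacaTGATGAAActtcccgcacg
Slc7a11 (chr3:50443661-50443690, - strand): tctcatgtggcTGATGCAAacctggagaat
The first 5 belong to genes that were higher in set 1 and the last to a gene that was lower, and the remaining member with a match, Aars (0.07, adjusted p = 0.27, edgeR), did not pass the test. A match alone therefore did not go with 1 direction. A match is a description of letters and not evidence of binding.

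Transcripts of the mitochondrial genome, which encode core subunits of the respiratory chain, were higher in set 1 for 7 of 9 tested members, with none lower and a median log2 difference of 0.47. Among all genes tested, 18.2% were higher and 20.4% lower. Apocytochrome b, mt-Cytb (chromosome M, 14145 to 15288), measured 4593, 4789, 4164 and 5288 CPM in set 1, 3532, 3849, 3188 and 3950 in set 2, and 3147, 3539, 2697 and 3513 in set 3. Every set 1 value lay above every value of sets 2 and 3. Set 1 differed from set 3 by 0.55 ± 0.05 (adjusted p = 2.02e-09) and from set 2 by 0.38, and set 2 differed from set 3 by 0.17. The complex I subunit mt-Nd1 had 3222, 3530, 4504 and 5821 CPM in set 1 and 2223, 2584, 3080 and 4026 in set 3 (0.52 ± 0.05). The 2 members not called were mt-Nd3 (0.14) and mt-Nd6 (0.26). Of the 13 on the list, mt-Co2, mt-Co3, mt-Atp6 and mt-Atp8 were not tested, with 5, 6, 0 and 1 counts over all libraries. The share below therefore holds almost nothing from these genes and is not the whole mitochondrial output. As a share of all counts, mitochondrial transcripts took 2.57% ± 0.60 (SD, n = 4) in set 1, 2.06% ± 0.43 in set 2 and 1.86% ± 0.40 in set 3, higher in set 1 than in set 3 in 4 of 4 treatments (two-sided exact permutation p = 0.00154, the smallest this design allows, adjusted over 8 measures 0.00412).

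Nuclear genes for the same respiratory complexes were also higher in set 1, by less. Of 31 tested, 23 were higher and only Ndufs1 (-0.16) was lower, against 18.2% and 20.4% of all genes, with a list median of 0.20. Uqcrfs1, the iron-sulfur subunit of complex III, gave 142, 146, 110.3 and 143 CPM in set 1, 122, 128, 101 and 123 in set 2, and 115, 113, 83.0 and 115 in set 3 (0.34 ± 0.05, adjusted p = 4.87e-06). The complex I subunits Ndufa6 (0.33) and Ndufb9 (0.29) and cytochrome c, Cycs (0.28), followed.

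Ribosomal protein mRNAs moved nearly as a block. Of 28 tested, 27 were higher in set 1 and Rpl7 (-0.16 ± 0.05) was lower, against 18.2% and 20.4% of all genes, with a list median of 0.28. Rps18, a protein of the small subunit (chr17:33951999-33956001), measured 361, 377, 273 and 464 CPM in set 1, 299, 322, 256 and 372 in set 2, and 241, 306, 225 and 340 in set 3 (0.40 ± 0.05, adjusted p = 8.98e-07). Rpl27 (0.34), Rps12 (0.34) and Rpl32 (0.33) had the next smallest adjusted p. The difference fell mostly between sets 1 and 2, where 26 of the 28 were higher in set 1, against 7.24% of all genes. Between sets 2 and 3, 1 was higher in set 2, against 3.94% of all genes. Ribosomal protein genes have many processed pseudogenes, and reads shared with them make single values uncertain. Together the ribosomal protein transcripts took 2.22%, 2.89%, 2.16% and 3.49% of counts in set 1 and 1.69%, 2.39%, 1.83% and 2.98% in set 3 (exact permutation p = 0.00309, adjusted 0.00617).

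These genes start with a pyrimidine-rich tract that couples their translation to growth signals. A run of at least 8 letters of C or T within 20 bases either side of the start was found in 10 of 19 ribosomal protein genes with a promoter entry (52.6%), in 4 of 22 respiratory chain genes (18.2%) and in 4300 of 27025 genes (15.9%). The stretches below show the longest such run, in capitals, in members that moved alike. A run found this way may not be the tract itself. That of Rpl4 has its first base at -18 from the start and is 14 letters long, so it lies before the start.
Rps18 (chr17:33955651-33955680, - strand): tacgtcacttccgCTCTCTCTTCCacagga
Rps6 (chr4:86857353-86857382, - strand): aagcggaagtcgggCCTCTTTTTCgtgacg
Rpl35 (chr2:39005117-39005146, - strand): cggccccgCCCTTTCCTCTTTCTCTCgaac
Rpl4 (chr9:64173361-64173390, + strand): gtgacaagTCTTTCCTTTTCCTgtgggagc
The log2 differences of these 4 were 0.40, 0.26, 0.33 and 0.28.

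**Figure D3:**
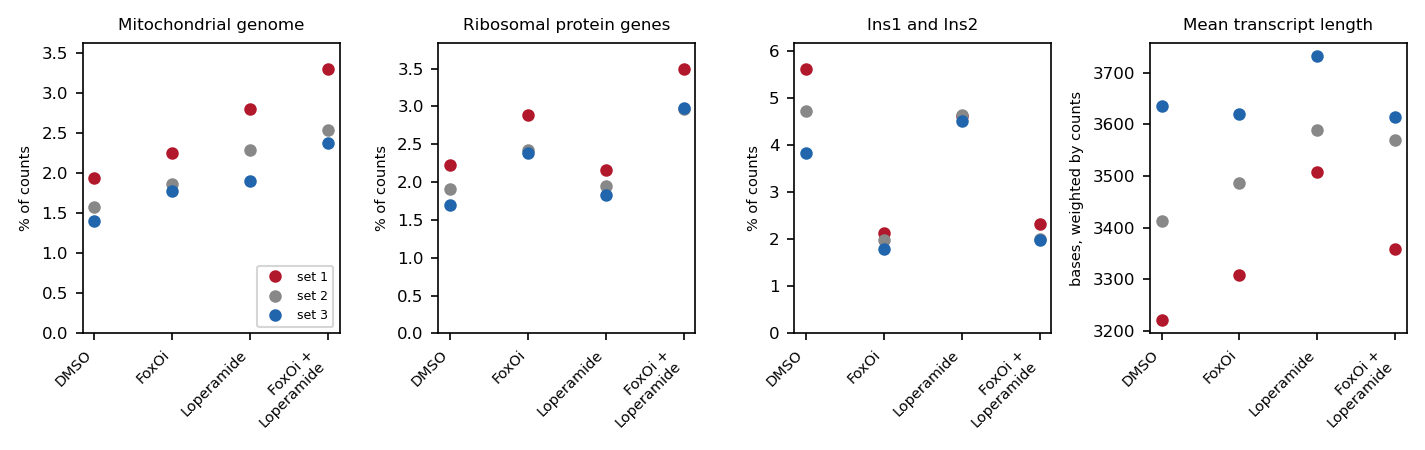
Share of counts from mitochondrial transcripts, from ribosomal protein genes and from Ins1 plus Ins2, and the count-weighted mean transcript length in nucleotides, in each library by treatment and set. Set 1 lies above set 3 in the 3 shares and below it in mean transcript length in all 4 treatments; the length axis does not start at 0.

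Both groups consist of short transcripts, and transcript length went with the difference between sets over the whole table. In the shortest quintile of genes (56 to 1141 nucleotides) 30.5% were higher in set 1 and 4.56% lower, with a median log2 difference of 0.21. In the longest quintile (4678 to 123179 nucleotides) 3.66% were higher and 57.4% lower, with a median of -0.26. The shortest quintile had medians of 0.29 in DMSO, 0.18 in FoxOi, 0.15 in Loperamide and 0.15 in the combination, and the longest quintile -0.31, -0.29, -0.20 and -0.21. Across 16783 genes, which are not independent replicates, Spearman's rho of length with the log2 difference was -0.49, and it ranged from -0.46 to -0.34 within treatments. For GC content, rho was 0.28, with 0.41 in DMSO and 0.14 to 0.20 in the others. The mean transcript length of a counted read, weighted by counts, was 3349 ± 120 nucleotides (SD, n = 4) in set 1, 3514 ± 81.1 in set 2 and 3651 ± 55.6 in set 3 (exact permutation p = 0.00154, adjusted 0.00412).

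A second fit, added after these values were seen, removed a smooth dependence on length and GC content from each library. It called 4499 genes (26.8%), 2173 higher in set 1 (12.9%) and 2326 lower (13.9%). Of these, 1245 genes were called higher and 1797 lower in both fits, 116 changed sign, and 1341 were called only there. The rank correlation with length was then 0.04. The ATF4 list held 17 higher and 1 lower of 28 (18 called in all, against 22), with Chac1 at 0.52, Trib3 at 0.50 and Ddit3 at 0.48. Mitochondrial mRNAs had 7 of 9 higher, with a median of 0.42. Ribosomal protein genes fell to 12 higher and 1 lower, and nuclear respiratory chain genes to 7 higher and 2 lower. Among the largest differences Aff2 (-1.48), Hipk2 (-1.48), Tmem178b (-1.87) and Klhl11 (-1.76) stayed at about their size, whereas the receptor gene Igf1r went from -0.38 to 0.04. Whether a difference in length arises in the cells or in the libraries was not tested.

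**Figure D4:**
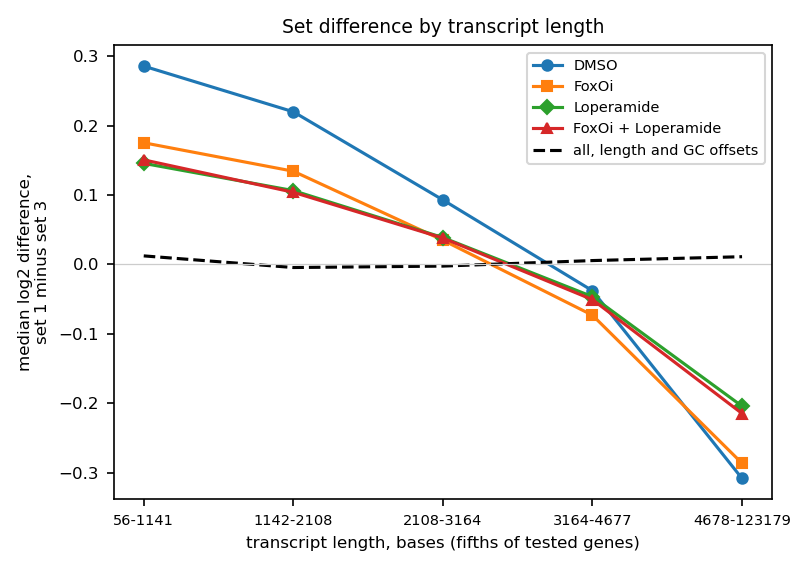
Median log2 difference of set 1 from set 3 in quintiles of genes by transcript length, with 1 line per treatment and a dashed line for the fit with length and GC offsets. The treatment lines run from 0.15 to 0.29 in the shortest quintile to between -0.31 and -0.20 in the longest, and the dashed line stays near 0.

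Immediate early genes, which cells induce within minutes of a stimulus, leaned the other way. Of 27 tested, 12 were lower in set 1 and 3 higher (Atf3 at 0.62, Fosl1 at 0.63 and Ier3 at 0.29), with a median of -0.18. Over all genes tested, 20.4% were lower and 18.2% higher. Dusp1, the phosphatase that shuts off MAP kinases, measured 18.1, 48.6, 42.9 and 54.0 CPM in set 1, 23.1, 62.9, 45.1 and 69.6 in set 2, and 31.3, 69.5, 62.4 and 88.7 in set 3 (-0.63 ± 0.07, adjusted p = 2.27e-08). Set 1 was lowest and set 3 highest in each treatment. Junb, a subunit of AP-1, differed by -0.43 ± 0.08 and the growth-restraining gene Btg2 by -0.27. Without the DMSO library of set 1 the list's called genes numbered 9 instead of 15, and without that of set 3 they numbered 8. Of the 3 higher genes Atf3, which ATF4 also induces, had the smallest adjusted p (8.13e-07, edgeR).

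Of 17 tested targets of cAMP and CREB, the route by which incretin hormones act on beta cells, 7 were lower in set 1 and Cartpt alone was higher. Over all genes tested, 20.4% were lower and 18.2% higher. Beside Dusp1, the list's lower members included the phosphodiesterase Pde4d (-0.68) and the differentiation inhibitor Id1 (-0.61). Leaving out the DMSO library of either set reduced the 8 called members to 5. With length and GC offsets 5 were called too, 1 higher and 4 lower, and the list's median went from -0.22 to -0.05. Heat shock genes had 6 lower and 2 higher of 17, against 20.4% and 18.2% of all genes. Hspa1b, an inducible chaperone, had 23.9, 35.7, 18.3 and 17.7 CPM in set 1 and 34.6, 56.0, 23.7 and 35.1 in set 3 (-0.65 ± 0.08), and its near-identical neighbour Hspa1a differed by -0.42, so reads of these genes may be shared. Hspe1 (0.35), which encodes a mitochondrial and not a cytosolic chaperone, and Dnaja1 (0.17) were higher.

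Insulin transcripts were slightly higher in set 1. Ins2 measured 56661, 19759, 43539 and 20988 CPM in set 1, 45732, 18032, 43494 and 17752 in set 2, and 37473, 16606, 43143 and 18286 in set 3 (0.26 ± 0.07, adjusted p = 0.00255). Set 1 was above set 3 by the most in DMSO and by the least in Loperamide, with 1 library of each set behind each difference. The interaction terms of Ins2 did not pass (edgeR adjusted p = 0.974 for FoxOi and 0.828 for Loperamide), nor did those of Ins1 (0.982 and 0.828). Ins1, the rodent copy, gave 0.26 ± 0.07 (adjusted p = 0.00411) with set 1 higher in 3 of 4 treatments, and amyloid polypeptide, Iapp, gave 0.09 ± 0.06 (adjusted p = 0.239). Neither insulin gene was called in the fit with length and GC offsets, at 0.05 for Ins2 and 0.12 for Ins1. The share of counts from both insulin genes was 5.63%, 2.14%, 4.63% and 2.32% in set 1 and 3.85%, 1.79%, 4.52% and 1.99% in set 3 (exact permutation p = 0.00463, adjusted 0.00741).

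Among 10 tested genes for other hormones, 4 were higher in set 1 and 1 was lower, beside 18.2% and 20.4% of all genes. Glucagon, Gcg, the alpha cell hormone, measured 778, 1134, 112 and 690.2 CPM in set 1, 807, 1250, 156 and 550 in set 2, and 567, 868, 96.5 and 519 in set 3 (0.38 ± 0.09, adjusted p = 0.00365). Sets 1 and 2 were both above set 3 in each treatment. The appetite peptide Npy had 2383, 1343, 1038 and 1456 CPM in set 1 and 1388, 996, 748 and 1183 in set 3 (0.49 ± 0.08, adjusted p = 0.000113). Gastrin, Gast (0.77 ± 0.15), and adrenomedullin 2, Adm2 (0.50), were higher too, and Tph1, the serotonin-making enzyme, was lower (-0.40), although it was higher in 1 of 4 treatments. With length and GC offsets neither Gcg (0.27) nor Tph1 (-0.20) was called. Somatostatin, Sst, gave 0.59 ± 0.20 (adjusted p = 0.0505). Without the DMSO library of set 3 the called hormone genes fell from 5 to 3.

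Of 23 beta cell transcription factors, 4 were higher in set 1 (Pax4, Insm1, Hnf4a and Nkx6-1) and 6 lower, near the shares of all genes tested (18.2% higher and 20.4% lower), so the counts show nothing about the list. Nkx6-1, a maturity factor, gave 0.20, while Pdx1 (-0.12, adjusted p = 0.0715) and Mafa (0.12, adjusted p = 0.38) did not pass the test. Glis3, which drives insulin transcription, had the smallest adjusted p (log2 -0.72 ± 0.07, 2.64e-08), followed by St18 (-0.48), Zfp148 (-0.44) and Rfx3 (-0.62). With length and GC offsets Nkx6-1 (0.11) was no longer called, Pdx1 (-0.27) was called, Zfp148 stood at 0.03 and Rfx3 at -0.18. In that fit Glis3 was reduced to -0.42 and St18 to -0.18. The glucose transporter Slc2a2 (0.27, adjusted p = 0.43), the maturity hormone Ucn3 (0.30) and the prohormone convertase Pcsk1 (-0.11) were not called, and Ldha, an enzyme that mature beta cells keep low, was lower (-0.46).

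Of 17 tested genes of the insulin granule, 5 were higher (Scgn, Chga, Resp18, Sec11c and Scg5) and 4 lower (Ptprn2, Slc30a8, Pam and Scg2), again near the shares of all genes (18.2% and 20.4%). Ptprn2, a granule membrane protein and diabetes autoantigen, had 256, 104, 268 and 93.1 CPM in set 1 and 393, 143, 460 and 144 in set 3 (-0.63 ± 0.05, adjusted p = 1.34e-09). The granule zinc transporter Slc30a8 differed by -0.36 ± 0.05, and with offsets both kept their size (-0.69 and -0.41). Of 25 genes for glucose sensing and exocytosis, 6 were higher and 7 lower, also near the shares of all genes. The lower ones were led by the granule-docking factor Sytl4 (-0.45), with Syt4 (-0.39) and the calcium channel Cacna1c (-0.34).

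FoxO targets are of interest because FoxO1 is the target of the inhibitor, though it is set and not drug that is compared here. Foxo1 itself measured 31.6, 26.4, 42.9 and 39.7 CPM in set 1 and 40.6, 26.7, 49.5 and 44.7 in set 3 (-0.19 ± 0.07, adjusted p = 0.0247), and the fit with offsets reversed this to 0.17. Of 23 tested targets, 8 were lower in set 1 and 3 higher, against 20.4% and 18.2% of all genes, with a median of -0.14. Sesn3, a sestrin that restrains mTORC1, gave 227, 99.9, 391 and 267 CPM in set 1 and 420, 142, 547 and 405 in set 3 (-0.62 ± 0.06, adjusted p = 4.44e-09). The thioredoxin inhibitor Txnip differed by -0.46 ± 0.07, and by -0.46 with offsets, while the insulin receptor, Insr, went from -0.56 to -0.16 with offsets. The list is long in transcript (median 4225 nucleotides), and 7 members were called with offsets, against 11 without.

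Imprinted genes held 5 higher and 7 lower of 20, against 18.2% and 20.4% of all genes, so the share higher is near the background. Igf2r, the receptor that clears IGF2 (chr17:12682406-12769664), had 207, 300, 261 and 255 CPM in set 1, 244, 357, 300.4 and 304 in set 2, and 369, 550.1, 434 and 396 in set 3, with no overlap between sets 1 and 3 (-0.77 ± 0.05, adjusted p = 1.29e-11). The Notch-related factor Dlk1 followed at 1498, 673, 1426 and 551 CPM against 2418, 916, 2039 and 735 (-0.51 ± 0.06). Of 14 nuclear and structural noncoding RNAs, 6 were higher in set 1 and Tug1 (-1.51 ± 0.17) was lower, against 18.2% and 20.4% of all genes. Neat1, the scaffold of paraspeckles, had 494, 411, 735 and 394 CPM in set 1 and 327, 236, 577 and 266 in set 3 (0.58 ± 0.06, adjusted p = 1.03e-08), while Malat1 gave -0.01. Called noncoding RNAs fell from 7 to 4 without the DMSO library of set 3, and with DESeq2.

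Fatty acid synthesis genes had 7 lower of 17, among them Scd1 (-0.35), Scd2 (-0.33) and Acaca (-0.27), and Elovl1 (0.19) was higher. The shares of all genes were 20.4% lower and 18.2% higher, and with offsets 4 of the list were called. Cholesterol genes had 7 higher and 6 lower of 25, near the 18.2% and 20.4% of all genes, with 8 called without the combination library of set 1 and 7 with offsets. Of 18 tested clock genes, 2 were higher (Ciart at 0.69 and Nfil3 at 0.67) and 5 lower, led by Clock (-0.70, or -0.25 with offsets). The shares of all genes were 18.2% and 20.4%, and the median of the clock list was -0.00017. Keratins on the ductal marker list were higher in set 1: Krt8 by 0.35, Krt7 by 0.41 and Krt18 by 0.47. With Ambp (0.86) they made 4 of 9 tested list members, none lower, against 18.2% higher and 20.4% lower over all genes. With offsets 3 members were called, all higher, and the list's median went from 0.35 to 0.17. Other members had too few reads to be tested, among them Krt19 and Sox9 at 11 counts each and Cftr at 3 over all libraries. The summed ductal markers ran from 317 to 596 CPM in set 1 and from 253 to 482 in set 3.

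**Figure D5:**
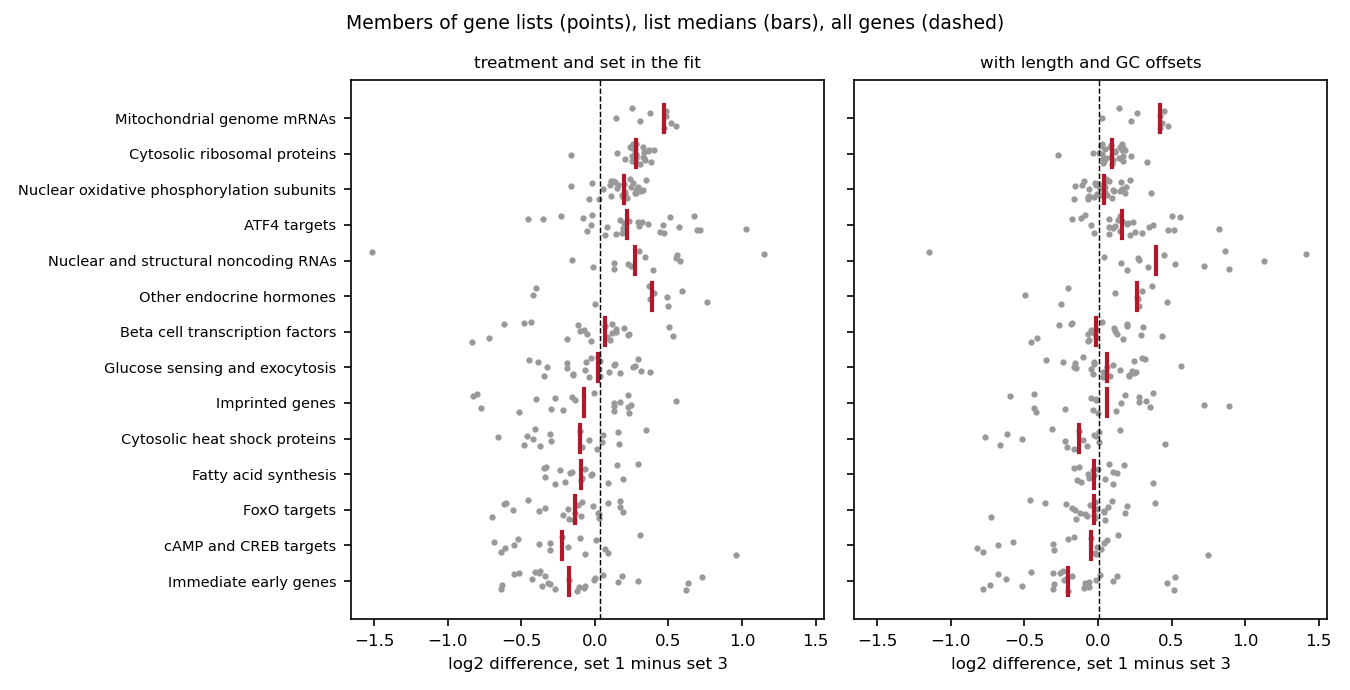
Log2 difference of set 1 from set 3 for the members of 14 gene lists (points) with the list medians (bars), without length and GC offsets on the left and with them on the right; the dashed line is the median of all genes. Ribosomal protein genes have a median of 0.28, ATF4 targets 0.22 and mitochondrial mRNAs 0.47 on the left, and the mitochondrial median is 0.42 on the right.

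Set 2 lay between the other sets for most genes that separated them. Its estimate was between those of sets 1 and 3 for 2586 of the 3056 genes called higher in set 1 (84.6%) and 3072 of the 3421 called lower (89.8%), against 9526 of all 16808 (56.7%). Since sets 1 and 3 enter both the call and the placement, these shares are a description. Sets 2 and 3 differed in 2223 genes (13.2%), 663 higher (3.94%) and 1560 lower (9.28%) in set 2, and sets 1 and 2 in 2858 (17%), 1217 higher (7.24%) and 1641 lower (9.76%) in set 1. Any difference among the 3 sets was called for 6108 genes (36.3%). These comparisons share libraries. The count for sets 2 and 3 fell to 1377 without the Loperamide library of set 2 and to 1405 without its DMSO library. The count for sets 1 and 2 fell to 1453 without the combination library of set 2, 1475 without the DMSO library of set 1, 1694 without the combination library of set 1, 1744 without the FoxOi library of set 2 and 1889 without that of set 1.

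Proliferation genes did not follow that order. Of 29 tested DNA replication genes, set 2 was above both other sets for 22 and below both for none, against 20% and 23.3% of all genes. Compared with set 3, 11 were higher in set 2 and 1 was lower, against 3.94% and 9.28% of all genes. Compared with set 2, 10 were lower in set 1 and none higher, against 9.76% and 7.24% of all genes. Prim1, the small subunit of DNA primase, differed by 0.35 ± 0.06 between sets 2 and 3. Mitosis genes were alike, with set 2 above both in 16 of 25. Between sets 1 and 3 themselves the replication list had 8 higher and 6 lower, not far from the shares of all genes (18.2% and 20.4%). The exception in size was the S-phase cyclin Ccne2, at 34.1, 51.3, 34.9 and 32.9 CPM in set 1, 56.9, 73.5, 41.4 and 53.2 in set 2, and 76.4, 96.2, 58.4 and 62.9 in set 3 (-0.94 ± 0.07, adjusted p = 8.72e-11). Without the combination library of set 1, the replication genes called between sets 1 and 3 fell from 14 to 8.

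Other genes separated set 2 from both neighbours. Pancreatic polypeptide, Ppy, had 18.1, 13.5, 18.8 and 12.3 CPM in set 2, against 14.8, 5.75, 3.63 and 3.48 in set 1 and 8.07, 6.20, 3.74 and 2.38 in set 3 (set 2 against set 3, 1.65 ± 0.34, adjusted p = 0.0209). The neurite-promoting gene Nrn1 differed by 1.08 ± 0.13 between sets 2 and 3. Faim2, an inhibitor of Fas-driven death, had 8.18, 3.54, 4.38 and 1.47 CPM in set 1 and 2.92, 1.43, 0.988 and 0.313 in set 2 (1.63 ± 0.21, adjusted p = 2.32e-05).

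Whether sets 1 and 3 responded differently to the drugs was tested by interaction terms, and no gene passed. For FoxOi, 0 of 16808 genes (0%) were called (edgeR), with 986 (5.87%) at an unadjusted p below 0.05 and a smallest adjusted p of 0.197. For Loperamide the numbers were 0 (0%), 993 (5.91%) and 0.676. DESeq2 called 1 and 0 genes, and a fit without a filter on low counts 14 and 3. With 1 library left out, FoxOi calls reached 9 at most, without the DMSO library of set 1, and Loperamide calls 7, without the FoxOi library of set 3. These tests rest on 4 residual degrees of freedom, so a gene that misses the threshold is not shown to respond alike. For scale, the drugs themselves against DMSO, with set in the fit, changed 9428 genes (56.1%) for FoxOi, 8179 (48.7%) for Loperamide and 9915 (59%) for both. Of these, 4879 (29%), 4330 (25.8%) and 4990 (29.7%) were higher than in DMSO. The median absolute log2 difference of the called genes was 0.52, 0.46 and 0.58 for the drugs, against 0.32 for set 1 against set 3.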

How the data were processed

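Gene-level read counts and FPKM values (fragments scaled by transcript length and depth) for the 12 libraries were used as the authors deposited them. Per the submitters' processing notes, STAR 2.7.5a, Picard 2.19.2 and DESeq2 were used with GRCm38. The kit is stranded per the labels' protocols, but the counting tool, its strand setting and its treatment of multiple matches are not stated, so values of overlapping, antisense and near-identical genes are uncertain. Sets were read from the library codes in the labels.

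The count model was edgeR 4.0.16 under R 4.3.3 (filterByExpr by treatment, TMM scaling, robust quasi-likelihood F test on treatment plus set over all 12 libraries, Benjamini-Hochberg adjustment, threshold 0.05). SE is the absolute log2 difference divided by the square root of F. Library measures were compared by exact permutation of set labels within treatment (1296 arrangements), adjusted over 8 measures. Alternatives were RLE scaling, no filter on low counts, DESeq2, limma on log2(FPKM + pseudocount), other designs, libraries left out, thinned counts and, added after seeing the data, offsets for length and GC content (the latter with loess).

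The sets and the 43 gene lists (779 distinct genes, 615 tested) were chosen with earlier results on these data known. Named genes are 14 fixed beta cell genes, the called genes of at least 1 CPM with the largest differences and one sign in all treatments (12 and 12 for sets 1 and 3, 5 and 5 for other contrasts), and up to 4 members of smallest adjusted p per list with at least 3 called; list members named beyond these, including all members where 5 or fewer were called and those shown by sequence, were chosen after their values were seen. Promoter sequences are from RefSeq. Values of 1 gene among those the rule names are not reported here.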

Additional observations from a re-analysis of the deposited data

Results flagged for a closer look

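Of 22 quantities compared over the 4 treatments, 2 had 1 treatment far from the other 3 by Dixon's gap test at the 95% level, which chance alone gives for about 1 quantity in 20. The difference between set 1 and set 3 in the share of counts from Ins1 and Ins2 was 1.78 percentage points in DMSO and 0.105 to 0.350 in the other treatments. The difference in the share from ribosomal protein genes was 0.328 percentage points in Loperamide and 0.500 to 0.528 in the others. No cause was tested.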

How the results depend on the processing

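The number of genes called between sets 1 and 3 (6477) was 6555 with RLE scaling, 6094 without a filter on low counts, 5606 with DESeq2, 6226 from the 8 libraries of these sets alone, 5588 after thinning to equal depth and 5266 to 6478 with 1 library left out. It was 283 without a treatment term (9 higher, 274 lower) and 4499 with length and GC offsets. Genes called for any set numbered 4904 to 6096 with 1 library left out. Between sets 2 and 3 the range was 1377 (without Loperamide replicate 2) to 2412, with 1405 without DMSO replicate 2. Between sets 1 and 2 it was 1453 (without replicate 2 of the combination) to 3565 (without DMSO replicate 3), with 1475 without DMSO replicate 1. Interaction calls went from 0 to 14 for FoxOi and 3 for Loperamide without a filter, to 1 for FoxOi with DESeq2, and to at most 9 and 7 with 1 library left out (at least 0). The labels' replicate numbers equal the sets: deviations of libraries with the same number correlated at 0.27 to 0.47 in set 1, 0.30 to 0.39 in set 3 and 0.08 to 0.13 in set 2, and each of the 12 libraries correlated best with one of its own number. Without the replicate block, genes called against DMSO numbered 6881 for FoxOi, 5370 for Loperamide and 7642 for both, against 9428, 8179 and 9915. The difference in total counts between sets reversed to 332892 without the FoxOi libraries and 649696 without the Loperamide libraries. Ppy (sets 1 and 3) ranged from -0.027 (without DMSO replicate 1) to 0.63 and Mafa from -0.0086 (without FoxOi replicate 3) to 0.22 with 1 library left out. With offsets the signs of Iapp (-0.0064), Mafa (-0.025), Foxo1 (0.17), Pcsk1 (0.14), Nexmif (0.23), Zfp148 (0.026), Cacna1c (0.083), Aldoa (-0.065), Slc7a11 (0.073), Acaca (0.10) and Igf1r (0.041) reversed. Except where fewer libraries were used, the cause was not tested. Of 4415 values of named genes under alternatives, 4052 kept their direction and side of the threshold, 325 lost the call, 25 gained it and 13 reversed. Only the 16808 of 55487 genes with enough reads could be compared at this depth.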
